A study of Mus musculus with 15 samples.

Results

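Genes for 10 proteins of neutrophil granules were followed across the microarrays of CD4+ T cells and thymocytes from mice without N-ras or H-ras. The genes belong together by what their products do, and they were selected on measured values, namely the change upon stimulation in CD4+ T cells and the difference between WT and KO thymocytes. They comprised 4 genes of the primary granules (Mpo, Elane, Prtn3 and Ctsg) and 6 genes whose products are loaded into granules or the cytoplasm later in neutrophil development (Camp, Ngp, Ltf, Lcn2, S100a8 and S100a9). All 10 were found, each on 1 probe set that was the same in both tables, among 18194 genes of the CD4+ T cell arrays and 12394 genes of the thymocyte arrays. Camp and Ngp are also among the genes that the study itself named from these arrays. It listed both as higher in WT in thymocytes and lower in WT in stimulated CD4+ T cells.

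CD4+ T cells were sorted by flow cytometry from the spleens of WT and N-ras KO littermates of the 129/SJ strain, bred from heterozygous parents and aged 6 to 20 weeks per the labels. The cells were cultured overnight with 1 µg/ml of antibodies against CD3 and CD28, a weak stimulus of the T-cell receptor, or without antibody, which gave 4 groups of 3 arrays. Untreated thymocytes of the same strain came from 3 mice, 1 of them WT, 1 without N-ras and 1 without H-ras. The 3 thymocyte mice are 6 weeks old in the methods and 6 to 20 weeks old in the labels. The KO mice lacked the gene in every cell, so that the hematopoietic cells that give rise to neutrophils were also mutant. Both the sorted CD4+ T cells and the thymus can hold other blood cells, and in such bulk RNA fewer cells of a type and less RNA per cell cannot be told apart.

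Neutrophils carry their antimicrobial proteins ready-made in granules that form in a fixed order in the bone marrow. Promyelocytes fill the primary (azurophil) granules with myeloperoxidase and serine proteases, whereas myelocytes and metamyelocytes fill the secondary and tertiary granules with lactoferrin, lipocalin 2 and cathelicidin. Transcripts of the primary granule proteins are mostly gone by the time a neutrophil enters the blood, whereas S100a8 and S100a9 remain abundant in the mature cell. PU.1, RUNX1 and the C/EBP factors are known regulators of these genes in the myeloid lineage. None of the 10 genes is a characteristic transcript of a T cell.

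The deposited values are log2 differences and not brightness. In the unstimulated CD4+ T cell arrays of each genotype the median was 0 on all 45101 probe sets, so a value is the distance from the median unstimulated array of the same genotype. The levels of unstimulated WT and N-ras KO cells can therefore not be compared, nor can the label of a CD4+ T cell be checked by how bright its markers were. Nras, the deleted gene, went against the labels of 4 arrays. On the widest-ranging of its 3 probe sets, the unstimulated and stimulated arrays were at 2.04 and 2.09 for N-ras KO replicate 3, and at -2.68 and -3.04 for WT replicate 1, while the other 8 arrays lay between -0.10 and 0.51. On its other 2 probe sets N-ras KO replicate 3 was at 0.80 to 1.70 and WT replicate 1 at -1.61 to -0.14. On 1 of these, stimulated WT replicate 1 (-0.14) did not stand apart. It lay above stimulated WT replicate 3 (-0.19) and stimulated N-ras KO replicate 2 (-0.46). In the thymocytes, Nras was 1.81 to 2.46 log2 lower in the N-ras KO array than in WT on its 3 probe sets. Genotypes of the CD4+ T cells are given below as labelled, and results are also given without these 4 arrays.

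The primary granule genes stood high in 1 stimulated N-ras KO array. Mpo, which encodes the peroxidase that makes hypochlorous acid, was at 4.89, -0.66 and 0.41 log2 in the stimulated arrays labelled N-ras KO 1, 2 and 3, and at 0.16, -1.28 and -1.05 in those labelled WT. Elane, the gene for neutrophil elastase, was at 2.36, -0.15 and -0.07 in the stimulated N-ras KO arrays and at -0.11, -0.46 and -0.78 in the stimulated WT arrays. In both genes replicate 1 of the stimulated N-ras KO cells was the highest of the 12 arrays, and the other arrays of the 2 stimulated groups overlapped.

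Prtn3 encodes proteinase 3 and had the narrowest range of the 10 genes. It was at 1.21, -0.36 and 0.10 log2 in the stimulated N-ras KO arrays and at -0.11, 0.09 and -0.35 in the stimulated WT arrays. Ctsg, the gene for cathepsin G, was at 2.85, -0.39 and 0.35 in the stimulated N-ras KO arrays and at -0.41, -0.67 and -0.26 in the stimulated WT arrays. Ctsg was the only primary granule gene with its highest value elsewhere, at 3.97 in unstimulated WT replicate 1, where Mpo was at 0.00, Elane at 0.00 and Prtn3 at 0.31. The mean of the 4 genes was 2.83 in stimulated N-ras KO replicate 1, 1.07 in unstimulated WT replicate 1 through Ctsg, and between -0.73 and 0.20 in the other 10 arrays.

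**Figure D1:**
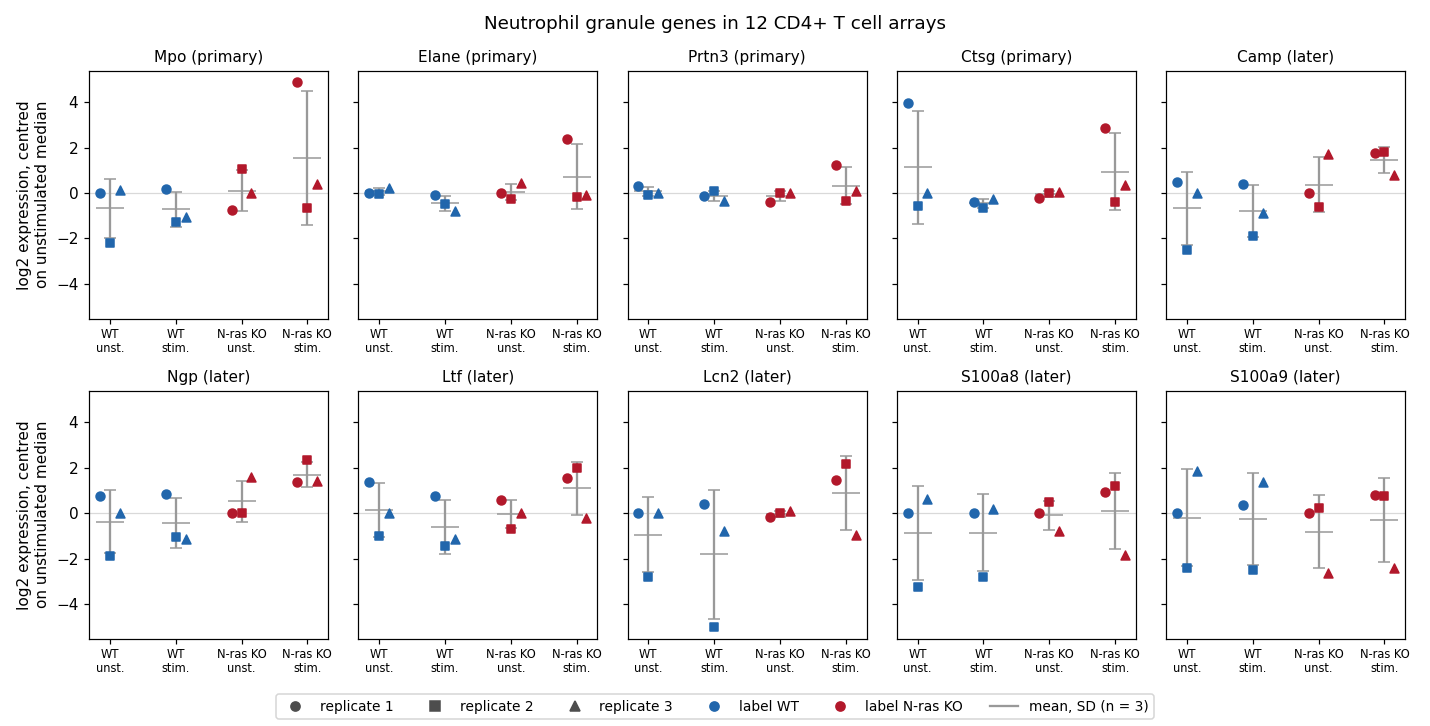
Each panel plots the log2 expression of 1 gene in the 12 CD4+ T cell arrays, as the distance from the median unstimulated array of the same labelled genotype, with symbols for the replicate number and gray lines for the mean and SD of 3 arrays. The 4 primary granule genes are high in stimulated N-ras KO replicate 1, whereas Camp, Ngp, Ltf and Lcn2 are high in replicates 1 and 2 of that group. Ngp (1.41) and Camp (0.80) are also high in its replicate 3, and all 6 later genes are low in both WT arrays numbered 2.

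The later granule genes were high in 2 of the 3 stimulated N-ras KO arrays and low in 2 WT arrays. Ngp, the gene for neutrophilic granule protein, was at 1.36, 2.33 and 1.41 log2 in the stimulated N-ras KO arrays 1, 2 and 3 and at 0.85, -1.04 and -1.12 in the stimulated WT arrays. Camp encodes the antimicrobial peptide cathelicidin and was at 1.75, 1.82 and 0.80 in the stimulated N-ras KO arrays and at 0.38, -1.88 and -0.88 in the stimulated WT arrays. In these 2 genes the 3 stimulated N-ras KO arrays lay above the 3 stimulated WT arrays, with means of 1.70 ± 0.55 and -0.44 ± 1.12 for Ngp and of 1.46 ± 0.57 and -0.79 ± 1.13 for Camp (SD, n = 3 arrays each). Unstimulated N-ras KO replicate 3, 1 of the arrays that Nras put in doubt, was also high, at 1.57 for Ngp and 1.71 for Camp.

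Ltf and Lcn2 encode the iron-binding lactoferrin and the siderophore-binding lipocalin 2. Ltf was at 1.55, 1.97 and -0.22 log2 in the stimulated N-ras KO arrays and at 0.74, -1.45 and -1.15 in the stimulated WT arrays. Lcn2 was at 1.45, 2.15 and -0.95 in the stimulated N-ras KO arrays and at 0.38, -5.03 and -0.81 in the stimulated WT arrays. In both genes N-ras KO replicate 3 fell within the range of the stimulated WT arrays, and so the groups overlapped.

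S100a8 and S100a9 encode the 2 chains of calprotectin, a calcium-binding and zinc-binding protein of the neutrophil cytoplasm. S100a8 was at 0.92, 1.20 and -1.83 log2 in the stimulated N-ras KO arrays and at 0.02, -2.83 and 0.20 in the stimulated WT arrays. S100a9 was at 0.80, 0.75 and -2.43 in the stimulated N-ras KO arrays and at 0.35, -2.51 and 1.37 in the stimulated WT arrays. Both genes differed from the other later genes in the arrays numbered 3, being low in N-ras KO replicate 3 and, for S100a9, high in WT replicate 3. They did so without stimulation as well, with S100a9 at -2.65 in unstimulated N-ras KO replicate 3 and 1.84 in unstimulated WT replicate 3. S100a8 and S100a9 are neighbors on chromosome 3, on which Nras also lies with 213 protein-coding genes between it and S100a9.

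The arrays numbered 2 of the WT cells had the lowest means over the later genes, with and without stimulation, although S100a9 was lowest in N-ras KO replicate 3 among the unstimulated arrays and Ngp in WT replicate 3 among the stimulated ones. In the unstimulated array all 6 later genes were below 0, from -3.25 to -0.99 log2, with a mean of -2.32, and in the stimulated array they ran from -5.03 to -1.04 with a mean of -2.46. The mean of the 6 genes was 1.31 and 1.70 in stimulated N-ras KO replicates 1 and 2, and between -0.54 and 0.45 in the other 8 arrays. Whether the unstimulated and stimulated arrays of 1 number came from the same mouse is stated in both ways in the methods.

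Genes of 1 class varied together across the 12 arrays more than genes of different classes. Pearson's r had a median of 0.78 over the 6 pairs of primary genes (0.55 to 0.86), 0.75 over the 15 pairs of later genes (0.13 to 0.96), and 0.34 over the 24 pairs of 1 primary and 1 later gene (0.02 to 0.59). For the primary genes 1 array lay far from the rest, stimulated N-ras KO replicate 1, with a mean of 2.83 log2. The correlations were not computed without it. These are descriptions over 12 arrays that share their centering and, in part, their source, and no test was made.

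The promoters of the 2 classes were also described, and their part in the array values was not tested. The 250 bases before the start of transcription were read for all 10 genes from RefSeq (GRCm38.p6) and searched on both strands for GAGGAA, the core bound by PU.1, for TTNNGNAA, a loose form of the C/EBP site, and for TGTGGT, the RUNX core. GAGGAA was found before all 4 primary genes and before 3 of the 6 later genes (Ltf, Lcn2 and S100a8), against 23.4% of 32536 distinct windows of that length. TTNNGNAA was found before none of the 4 primary genes and before 5 of the 6 later genes, all except Camp, against 36.8% of the windows. TGTGGT was found before Ctsg and S100a9, against 14.0% of the windows. No match of 1 motif overlapped a match of another in these 10 windows. A match is a string of letters and not a measured binding site.

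The windows of the neighboring genes Elane and Prtn3 are shown for the primary class, with GAGGAA in capitals. The letters begin 85 bases before the start of Elane and 95 bases before that of Prtn3, and both are followed by gt.
Elane (chr10:79886062-79886311, plus strand): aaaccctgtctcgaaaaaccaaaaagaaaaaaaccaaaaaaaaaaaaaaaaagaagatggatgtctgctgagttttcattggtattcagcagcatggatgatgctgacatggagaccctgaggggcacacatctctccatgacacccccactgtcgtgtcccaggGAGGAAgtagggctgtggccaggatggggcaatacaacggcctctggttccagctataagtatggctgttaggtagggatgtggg
Prtn3 (chr10:79879417-79879666, plus strand): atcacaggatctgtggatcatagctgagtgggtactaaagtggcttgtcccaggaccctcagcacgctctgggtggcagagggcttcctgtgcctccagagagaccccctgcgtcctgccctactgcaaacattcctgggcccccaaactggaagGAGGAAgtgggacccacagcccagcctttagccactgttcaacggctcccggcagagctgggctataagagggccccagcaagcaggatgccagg

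The windows of Ngp and Ltf, which lie on chromosome 9 with 20 protein-coding genes between them, are shown for the later class with TTNNGNAA on either strand in capitals. Ngp held 3 matches and Ltf held 2, of which TTGGGCAA occurred in both, beginning 11 bases before the start of Ngp and 75 bases before that of Ltf. Ngp held the same letters on the opposite strand too, printed as TTGCCCAA, beginning 138 bases before its start.
Ngp (chr9:110419558-110419807, plus strand): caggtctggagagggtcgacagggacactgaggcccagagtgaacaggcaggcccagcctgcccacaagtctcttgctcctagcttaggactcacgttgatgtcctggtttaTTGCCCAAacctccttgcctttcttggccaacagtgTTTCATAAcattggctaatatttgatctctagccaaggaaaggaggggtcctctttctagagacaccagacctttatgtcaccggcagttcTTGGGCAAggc
Ltf (chr9:111019042-111019291, plus strand): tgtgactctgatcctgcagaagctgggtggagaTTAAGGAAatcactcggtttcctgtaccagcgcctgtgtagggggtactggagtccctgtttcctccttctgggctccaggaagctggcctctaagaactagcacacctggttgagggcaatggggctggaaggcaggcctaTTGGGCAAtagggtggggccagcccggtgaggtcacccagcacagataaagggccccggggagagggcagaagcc

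The 6 later genes had higher values in the stimulated than in the unstimulated array for replicates 1 and 2 of the N-ras KO cells, and 5 of them had lower values for replicate 3. The differences between stimulated and unstimulated arrays of the same number had medians over the 6 genes of 1.18, 2.25 and -0.57 log2 in pairs 1, 2 and 3. The largest mean of the class over the 3 pairs was that of Ngp, 1.18 ± 1.26 log2 (SD, n = 3 pairs), with 1.36, 2.34 and -0.16 in the pairs. Ltf followed with 0.99, 2.65 and -0.22, and Camp with 1.75, 2.42 and -0.91. S100a9 was the only later gene that was higher in all 3 pairs, by 0.80, 0.53 and 0.22, a pattern shown by 13.8% of the 45101 probe sets in these cells. All 6 later genes were higher in both pair 1 and pair 2, as were 24.6% of all probe sets. Since these differences chose the genes, nothing is read from those counts and no test was made.

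The primary granule genes followed another pattern in the N-ras KO cells. All 4 were higher in pair 1, with Mpo at 5.62 log2, Ctsg at 3.06, Elane at 2.36 and Prtn3 at 1.60. Of all 45101 probe sets, 21765 were higher in that pair. In pair 2, Mpo was at -1.73, Ctsg at -0.39, Prtn3 at -0.36 and Elane at 0.13. The median over the 4 genes was 2.71, -0.38 and 0.20 in the 3 pairs, and the median of their means, 0.82, became -0.16 without replicate 1. For the later genes the corresponding median, 1.00, became 0.66 without replicate 1, 0.40 without replicate 2, and 1.84 without replicate 3, the pair whose Nras values go against the label.

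In the WT cells no granule gene was higher in all 3 pairs, as 14.5% of all probe sets were. The medians over the later genes were 0.05, 0.18 and -0.84 log2 in pairs 1, 2 and 3, and those over the primary genes were -0.26, 0.06 and -0.69. In pair 3 all 10 genes were lower in the stimulated array, in which 23456 of the 45101 probe sets were higher. These differences chose the genes, so nothing is read from that count. The widest single values were -4.38 for Ctsg in pair 1, which came from its high unstimulated array, and -2.20 for Lcn2 in pair 2. The median of the means over the later genes was -0.09, and it was -0.20 without replicate 1, -0.35 without replicate 2 and 0.18 without replicate 3, so that its sign rests on replicate 3.

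**Figure D2:**
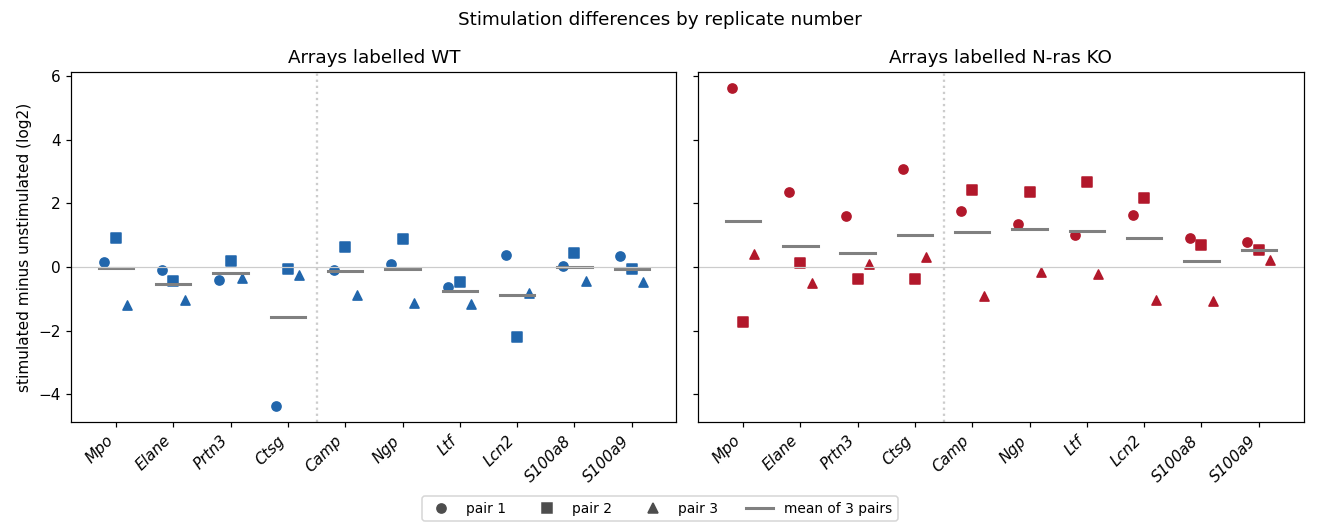
The points show the log2 difference between the stimulated and the unstimulated array of the same replicate number for each gene, in arrays labelled WT (left) and N-ras KO (right), with gray bars for the mean of 3 pairs and a dotted line between primary and later genes. In N-ras KO the primary genes are high in pair 1, at 1.60 to 5.62, and the later genes in pairs 1 and 2, while pair 3 is below 0 for 5 of the 6 later genes.

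Stimulated WT and stimulated N-ras KO cells were compared by limma over all 12 arrays, which is the comparison of the study for the low-level stimulus. Because each genotype was centered on its own unstimulated arrays, it compares how far the stimulated arrays lie from that baseline. The 10 genes were selected on values of these same arrays, so their differences and counts are a description, no p-value is given for them, and nothing is read from the counts. None of the 10 genes passed an adjusted p of 0.05, nor did any of the 45101 probe sets (0%), of which 3427 had an unadjusted p under 0.05 by limma and 2882 by the methods' t-test. Taking WT minus N-ras KO, Ngp differed by -2.14 log2 (standard error 0.76) and Camp by -2.25 (standard error 0.87). Standard errors here and below leave out the error of each baseline, which rests on 3 unstimulated arrays. Measured from the mean of the unstimulated arrays, Ngp changed by -0.06 in WT and 1.18 in N-ras KO. Camp changed by -0.12 and 1.09. For the difference between responses, limma put 586 probe sets at an unadjusted p under 0.05 and 0 past the adjusted threshold. Between the stimulated groups, Ngp and Camp alone of the 10 were at the study's thresholds, an unadjusted p under 0.05 with 1.5-fold. At those thresholds 3.57% of all probe sets were lower in WT. The non-overlap of their stimulated groups, with WT the lower as in 7.46% of all probe sets, comes from the same values and adds no separate evidence.

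The other 8 genes were not at either threshold. Lcn2 differed by -2.71 log2 (standard error 1.33), Mpo by -2.27 (standard error 1.24) and Ltf by -1.72 (standard error 0.78). Ctsg stood at -1.38, Elane at -1.16, S100a8 at -0.97, Prtn3 at -0.44 and S100a9 at 0.03 log2. The median over the later genes was -1.93 and that over the primary genes -1.27, beside -0.03 over all probe sets, and 9 of the 10 genes were below 0.

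The count of genes at the study's thresholds moved with single arrays. It was 2 in all, 4 without stimulated WT replicate 1, 0 without stimulated WT replicate 2, 0 without stimulated WT replicate 3, 1 without stimulated N-ras KO replicate 1, and 5 without stimulated N-ras KO replicate 3. It was 3 without stimulated N-ras KO replicate 2, without unstimulated WT replicate 1 or without unstimulated WT replicate 2. The median of the primary genes was -0.38 without stimulated N-ras KO replicate 1, and that of the later genes was -1.20 without stimulated WT replicate 2. Over all 45101 probe sets the count was 3112 with every array and 2436 to 3861 with single arrays left out. The granule genes were chosen on these arrays, so nothing is read from their counts. Without the 4 arrays whose Nras values go against their labels, the count was 4 (Camp, Ngp, Ltf and Lcn2), beside 3264 of all probe sets. The median of the later genes was then -2.99, and S100a9 stood at -1.35.

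Other genes of granulocytes were taken as lists to show what else varied in these arrays. Among 18 other neutrophil granule genes the median difference between stimulated WT and N-ras KO cells was -0.11 log2, with 9 below 0 and 0 past the adjusted threshold. Their widest differences were -2.56 for Chil3, a chitinase-like lectin, 1.76 for Mmp9, the gelatinase of tertiary granules, and -1.67 for Pglyrp1, a peptidoglycan recognition protein. None of those 3 passed either threshold, and Chil1 alone of the 18 was at the study's thresholds, at -1.29. The 10 neutrophil surface genes had a median of -0.01 and none at the study's thresholds. The 11 granulocyte regulators had a median of 0.16, with Irf8 (1.61) and Cebpa (0.99) higher in WT at the study's thresholds, as were 3.33% of all probe sets, and none past the adjusted threshold. In the other lists, Vpreb1 of the B-cell genes (1.85) and Kit of the basophil and mast cell genes (0.70) were also higher in WT at the study's thresholds.

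Markers of other cells, and the other lists of granulocyte genes, spanned a narrower range of medians than the 10 granule genes, which were chosen on values of these same arrays. The contrast is therefore a description, and nothing is read from it. Medians ran from -0.25 to 0.38 log2 for 18 other neutrophil granule genes and from -0.22 to 0.17 for 10 neutrophil surface genes. They ran from -0.12 to 0.35 for 11 granulocyte regulators. The median of 10 T-cell genes ran from -0.88 to 0.65 log2 over the 12 arrays. It was -0.81 and -0.88 in N-ras KO replicate 3 and 0.65 and 0.60 in WT replicate 3, without and with stimulation, and between -0.14 and 0.07 in the other 8 arrays. S100a8 and S100a9 were also low in N-ras KO replicate 3, S100a9 was also high in WT replicate 3, and the part of the T-cell genes in that pattern was not tested. The median of 13 macrophage genes stayed between -0.17 and 0.29, that of 8 erythroid genes between -0.35 and 0.41, and that of 8 platelet genes between -0.17 and 0.22. The medians of 7 eosinophil genes ran from -0.18 to 0.14, of 8 basophil and mast cell genes from -0.19 to 0.39, of 9 other S100 genes from -0.27 to 0.28, and of 7 immature thymocyte genes from -0.60 to 0.91. The median of 9 B-cell genes was highest in the stimulated replicates 3, at 1.05 in N-ras KO and 0.92 in WT, in which the later genes had means of -0.54 and -0.40. In stimulated N-ras KO replicates 1 and 2, where the later genes were highest, the B-cell genes were at 0.09 and 0.16 and the macrophage genes at -0.17 and 0.01.

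**Figure D3:**
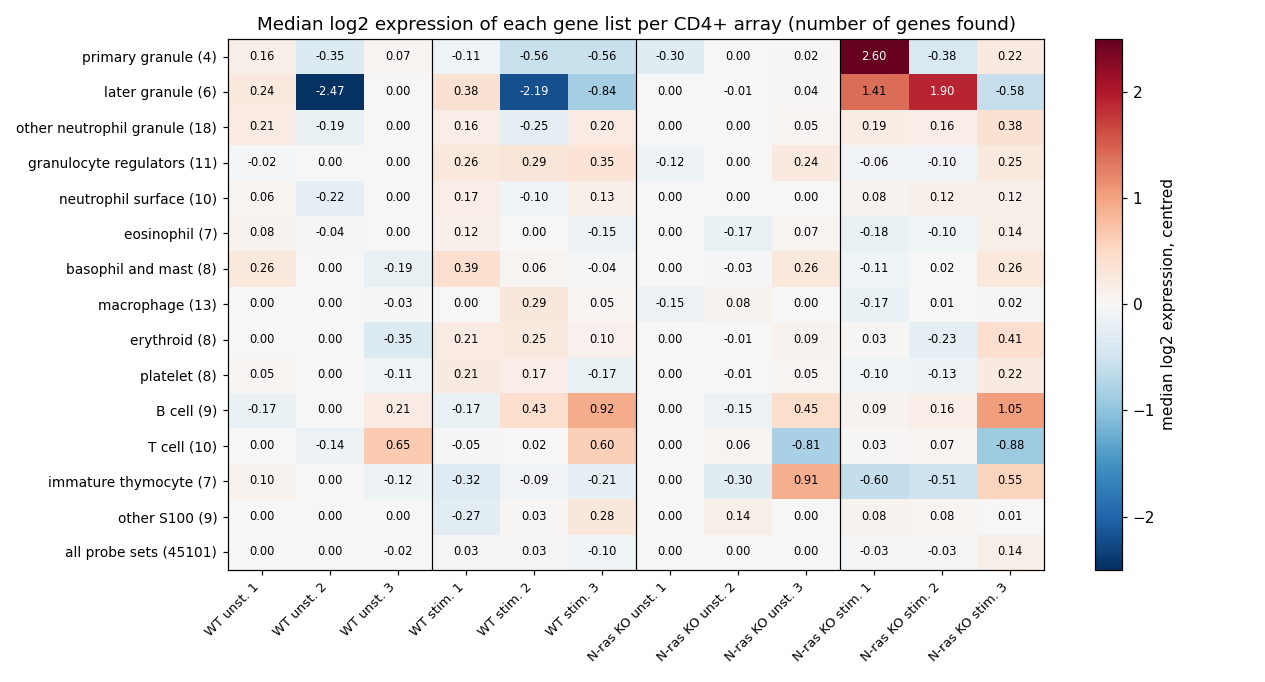
Each cell gives the median log2 expression over the genes of 1 list (rows, with the number of genes found) in 1 CD4+ T cell array (columns, by labelled genotype, stimulation and replicate), from blue for low to red for high. The later granule genes span -2.47 to 1.90 and the primary ones reach 2.60 in 1 array, while the list of T-cell genes spans -0.88 to 0.65. The list of other neutrophil granule genes spans -0.25 to 0.38. The granule genes were chosen on values of these arrays.

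Cd177, Mmp8 and Lyz2 were nearest to the profile of the later genes among the other neutrophil granule genes. Over the 12 arrays Pearson's r with the mean of the 6 later genes was 0.78 for Cd177, a surface protein of neutrophils, 0.78 for Mmp8, the neutrophil collagenase, and 0.75 for Lyz2, which encodes lysozyme. Over all 18 genes of that list r ran from -0.51 to 0.78 with a median of 0.33, and it was below 0 for 7 of them. Of all genes outside the 10, Acyp1 (0.91), Vps72 (0.88), Hacl1 (0.88), Hnrnph1 (0.87), C230037L18Rik (0.87), Gm32633 (0.87), Ifi213 (0.87), Adam6a (0.85), Wwp2 (0.84) and Il27ra (0.84) were nearest to that profile. For the mean of the 4 primary genes, Dsc2 (0.96), St3gal1 (0.95) and Rhpn2 (0.93) were the nearest of all genes outside the 10, and the later gene nearest to it was Camp at 0.55. These profiles were searched among many genes over 12 arrays, so high values are reached by genes of any kind.

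In thymocytes all 10 granule genes were highest in the WT array. The 3 arrays were centered on their median for every probe set, and with 1 array per genotype no test was possible. Camp was at 1.45 log2 in WT, 0.00 in N-ras KO and -0.90 in H-ras KO, so that WT exceeded the N-ras KO array 2.74-fold and the H-ras KO array 5.10-fold. Ngp was at 1.72, 0.00 and -0.57 in the same order, a 3.29-fold and a 4.87-fold difference. The study placed Camp against N-ras KO in a band of fold change below 2.74, and Ngp against H-ras KO in a band above 4.87. For all 6 later genes the H-ras KO array was the lowest and the N-ras KO array lay between.

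The other later genes had differences of a similar size. Taking N-ras KO before H-ras KO, Lcn2 was 3.11-fold and 4.48-fold higher in WT, S100a9 was 3.08-fold and 4.35-fold higher, and S100a8 was 2.74-fold and 3.75-fold higher. Ltf was the lowest of the class at 2.62-fold and 3.29-fold. The 6 genes thus spanned 1.39 to 1.72 log2 against N-ras KO and 1.72 to 2.35 log2 against H-ras KO.

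The primary genes had a smaller median difference, and the order of the KO arrays was the other one. Mpo was at 1.32 log2 in WT, -0.10 in N-ras KO and 0.00 in H-ras KO, 2.66-fold and 2.49-fold higher in WT, the first of which was above that of Ltf. Prtn3 was 1.99-fold and 1.87-fold higher in WT, and Ctsg was 1.87-fold and 1.36-fold higher. Elane was nearest to the 1.5-fold limit, at 1.46-fold and 1.42-fold. All 4 primary genes were lower in N-ras KO than in H-ras KO, by 0.04 to 0.46 log2, whereas all 6 later genes were higher in N-ras KO than in H-ras KO, by 0.33 to 0.90 log2.

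At 1.5-fold, WT stood above N-ras KO for 9 of the 10 genes, as for 1.09% of 22690 probe sets, and above H-ras KO for 8 of the 10, as for 1.51%. These differences were used to choose the genes, so the counts are a description. Both comparisons share the WT array, in which 10 of 10 genes were above 0, and cannot be taken as separate evidence. In the order of all probe sets, Ngp was 32nd from the highest against N-ras KO and 22nd against H-ras KO, and Elane was 283rd and 460th.

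**Figure D4:**
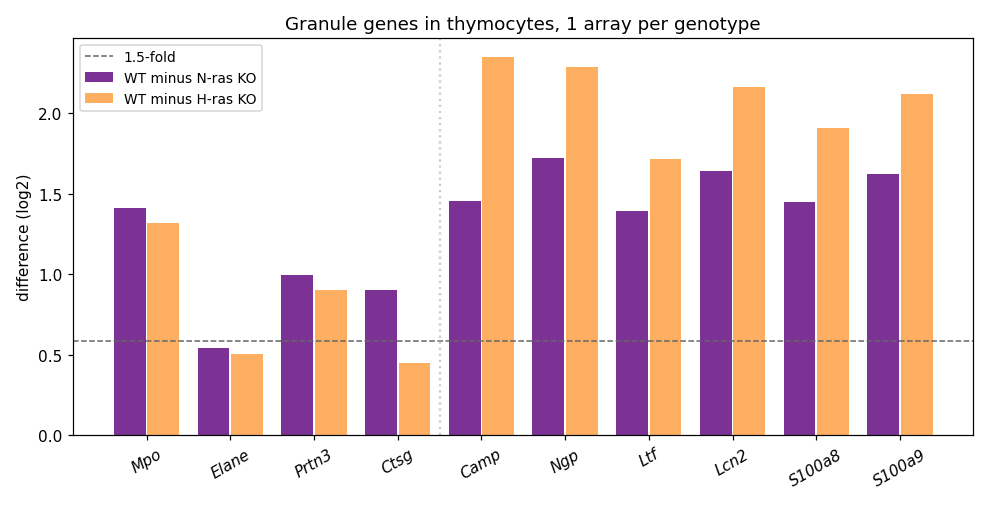
Bars give the log2 difference between the WT thymocyte array and the N-ras KO array (purple) or the H-ras KO array (orange) for each granule gene, with 1 array per genotype and a dashed line at 1.5-fold. The 6 later genes lie between 1.39 and 2.35, and Elane is below the line in both comparisons.

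Genes of other blood cells were mostly near 0 in the same thymocyte comparisons. Of 15 other neutrophil granule genes, 2 were 1.5-fold above the N-ras KO array (Hp at 0.68 log2 and Pglyrp1 at 0.66) and 3 above the H-ras KO array (Cybb at 1.03, Hp at 1.03 and Cd177 at 0.81). The median over the 15 was 0.17 and 0.34 log2, beside 1.54 and 2.14 for the later and 0.95 and 0.70 for the primary genes, and 0 for all probe sets. Cebpb, a C/EBP factor, was 1.35 and 0.76 log2 higher in WT. Of 7 eosinophil genes, 2 were 1.5-fold higher in WT in each comparison, with Prg2, the major basic protein, at 2.58 and 2.89 log2. Against H-ras KO another of the 7, Siglecf, was 1.5-fold lower in WT, at -0.66 log2, and the medians over the 7 genes were 0.29 and 0. The 13 macrophage genes had none at 1.5-fold, with medians of 0.17 and 0.14, and 8 platelet genes had medians of 0.01 and 0. The 10 T-cell genes had none at 1.5-fold either, with medians of -0.09 and 0.01. In the same order the medians were 0.23 and 0.10 for 10 neutrophil surface genes, 0.13 and 0.25 for 11 granulocyte regulators, 0 and 0 for 8 basophil and mast cell genes, 0.04 and 0 for 8 erythroid genes, 0 and 0.14 for 9 B-cell genes, 0.01 and -0.02 for 7 immature thymocyte genes, and 0 and 0 for 9 other S100 genes. In these lists Fpr2 of the neutrophil surface genes was 1.5-fold higher in WT in both comparisons, at 0.75 and 0.73 log2. Against H-ras KO, so were the regulator Spi1 (0.69), Cpa3 of the mast cell genes (0.81) and Car2 of the erythroid genes (0.63). The B-cell genes Cd79a (0.68) and Ms4a1 (0.62) were too, while Rag2 of the immature thymocyte genes was 1.5-fold lower (-0.60). The WT array held the same value as the N-ras KO array on 7265 of all 22690 probe sets, and as the H-ras KO array on 7974. These ties held 4 and 5 of the basophil and mast cell genes and 4 and 4 of the platelet genes. They also held 5 and 5 of the other S100 genes. A median of 0 can thus come from tied values, and the reason for the ties was not tested. How many granulocytes each thymus held is not known from these arrays, and the part of such cells in the differences was not tested.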

How the data were processed

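RNA of CD4+ T cells (4 groups of 3) and of thymocytes (3 genotypes, 1 each) was hybridized to Affymetrix arrays. The authors deposited log2 values made by RMA in GeneSpring with quantile normalization, then set to a baseline at the median of the controls. The submitters' notes give no version of RMA. The methods name 1 array type, while the tables hold 45101 and 22690 probe sets, and samples with little cRNA were amplified, which of them is not stated. Array brightness and background are not given, so the number of arrays limits the precision.

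Gene names came from GEO's annotation of the platforms. Of the CD4+ T cell probe sets, 34958 had 1 gene, 932 several and 9211 none, and of the thymocyte probe sets 20393, 691 and 1606. No values were filtered out. The comparison of stimulated WT and N-ras KO arrays was a two-sided limma test (version 3.58.1 under R 4.3.3, with 4 groups sharing 1 spread) with Benjamini-Hochberg adjustment over 45101 probe sets and a threshold of 0.05. Beside it, the study's thresholds (unadjusted p of 0.05 and 1.5-fold) and its t-test were used. Where separate mice are not certain, p-values measure only the spread between these arrays. Differences upon stimulation and between thymocyte arrays were computed in Python 3.11.15 and not tested, because the genes were chosen on them. The comparison of stimulated arrays was planned as a test, but the genes were also chosen on those arrays, so that it is given as differences, standard errors and counts without p-values for them. The fit was tested on simulated data.

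The members and the 14 gene lists were chosen with earlier results of these data known. Named beside the members were Nras, up to 3 genes per list with the widest difference in a comparison, and the genes nearest to a profile, ordered by Pearson's r. Lists used 1 probe set per gene, by type and then by ID. Chil1, Siglecf, Vpreb1, Kit and the genes of the primary profile were named after their values were seen. Stimulated and unstimulated arrays of the same number deviated together within a genotype (r of 0.458, 0.447 and 0.738 in WT, and 0.361, 0.394 and 0.626 in N-ras KO), but those of different genotypes did not (-0.621 to -0.117), so that numbers were used as pairs within a genotype only. Alternatives were a fit of the 2 stimulated groups, a replicate block over all arrays or within genotype, quantile normalization, centering of arrays, array weights, the t-test, a 2-fold limit, leaving out each array and leaving out those that Nras put in doubt. Promoter windows came from RefSeq (GRCm38.p6), and matched for 10 of 10 genes. They start before any transcribed base.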

Additional observations from a re-analysis of the deposited data

How the results depend on the processing

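Over all alternatives 0 granule genes passed the adjusted threshold. Their count at the study's thresholds, 2, was 0 after quantile normalization, 6 with array quality weights, 4 without the 4 arrays that Nras put in doubt, and 0 to 5 when single arrays were left out. With the replicate number as a block over all 12 arrays it was 3 (Ltf joined), and with a replicate block within genotype it was 2, with 2967 and 2933 of all probe sets at those thresholds against 3112 without a block. The block changed no other call of a granule gene. Over all probe sets the count was 1840 by the methods' t-test and 1905 after quantile normalization. It was 4417 with array quality weights, 3264 without the arrays that Nras put in doubt, and 2436 to 3861 with single arrays left out. At the adjusted threshold, 0 probe sets became 1 with array weights, 3 without stimulated N-ras KO replicate 2 and 13 without stimulated N-ras KO replicate 3. With single arrays left out, the median difference of stimulated WT minus N-ras KO ran from -2.59 to -1.20 log2 for the later and from -1.82 to -0.38 for the primary genes. Signs turned for 3 genes that had passed no threshold. With single arrays left out, Prtn3 ran from -0.78 to 0.0099 (highest without stimulated N-ras KO replicate 1) and S100a8 from -1.93 to 0.010 (highest without stimulated WT replicate 2). S100a9, at 0.03, was at -0.50 after quantile normalization, -1.37 with array weights, -1.35 without the doubted arrays, and -1.04 to 1.15 when single arrays were left out. For stimulation, the difference of group medians in WT later genes was -0.84, against -0.09 for the difference of means, which is the same with or without pairing. Every unstimulated group median was 0, so -0.84 is set by the medians of the stimulated arrays alone. The cause of the other shifts was not tested. The thymocyte counts, 9 and 8 at 1.5-fold, were 7 and 7 at 2-fold. With 3 arrays a group and 1 array per thymocyte genotype, differences of the size of the spread between arrays were not detectable, and the centered values give no signal over background.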
